A study of Mus musculus with 15 samples.

Results

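Contacts of 3 promoter viewpoints with regions of their own chromosome more than 500 kb away were measured by NG Capture-C, in which neighbouring DpnII fragments are ligated in fixed nuclei and ligation products of chosen promoters are enriched with oligonucleotides. Hba, on chr11, stands for the α-globin gene pair, Hbb, on chr7, for the pair of adult β-globin genes, and the third viewpoint, on chr14, is Slc25a37, which encodes a mitochondrial iron importer. Every fragment of the viewpoint's own chromosome lying over 500 kb from the nearest viewpoint was kept. Over all chromosomes 1515778 fragments held a read in these libraries, counted separately for each viewpoint. Of 315393 fragments with a read on the viewpoints' own chromosomes, 308654 met that rule. They were summed into 470 bins, of 250 kb up to 5 Mb from the viewpoint and of 1 Mb beyond, namely 145 bins for Hba, 176 for Hbb and 149 for Slc25a37. Coordinates are mm9.

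The 15 libraries came from 9 groups. The ES group was 1 library of E14 embryonic stem cells, strain 129/Ola. The other 14 libraries were erythroid cultures of fetal liver from E12.5 embryos, strain F1 C57Bl6/CBA, grown in expansion medium for 5 to 7 days, then cleared of cells carrying Ter119 and left to differentiate for 18 hours. Deletions of 1 regulatory element of the α-globin locus (R1_KO, R2_KO, R3_KO, Rm_KO and R4_KO) had 1 library each, and the double deletions R1R2_KO and R2R3_KO and the control without a deletion had 3 each. The single deletions and ES cells shared 1 table per viewpoint, and the double deletions and control another. Strain and cell type cannot be told apart in the ES library. Nothing in the labels says whether a replicate number marks a shared litter or day, so a p-value here covers only the spread among these libraries, part of which may be technical. The ES sample carries the fetal liver growth text, so how the ES cells were grown is not known here, and the ES call rests on the label alone. That sample's label also names Slc25A38 where the other 14 name Slc25A37. Its Slc25a37 values come from the ES column of the Slc25a37 table, where 153507 of its 197967 reads lay on chr14 more than 2 kb from that viewpoint.

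In ligation assays, contact frequency falls with distance along the chromosome. On top of that decay, stretches of active and inactive chromatin tend to meet their own kind over many megabases. Maturing erythroid cells transcribe the globin genes and Slc25a37 strongly, and embryonic stem cells do not make α- or β-globin.

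Reads beyond 500 kb numbered 167751, 114958 and 66615 at Hba, Hbb and Slc25a37 in the ES library. The single deletions had 65060 to 125837 Hba reads, 56975 to 107265 Hbb reads and 22343 to 54890 Slc25a37 reads. The 9 libraries of the double deletions and control were shallower, holding 15574 to 36463 Hba reads, 11133 to 22866 Hbb reads and 5195 to 12243 Slc25a37 reads. Fragments holding 2 reads were frequent, at 46.0% to 70.6% of the number holding 1 read over the erythroid libraries at Hba and 43.7% to 76.8% at Hbb. At Slc25a37 they were at 8.47% to 14.7% in the double deletions and control and 53.6% to 61.7% in the single deletions. No expected ratio was computed, and the origin of such fragments was not tested. Reads were therefore not taken to be independent molecules, and every comparison of bins was also made on the number of fragments with a read. Values below are reads per 10000 distant reads of a library. The expected number in a bin came from a smooth decay curve fitted to each library over distance, and log2 observed over expected is the departure from it.

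Distance decay was steeper in ES cells than in every erythroid library at Hba and Hbb, and at Slc25a37 except in a least-squares fit. The exponent of a power law fitted to counts, where a more negative value means a steeper fall, was -0.85 in ES cells at Hba, against -0.62 to -0.40 in the 14 erythroid libraries. At Hbb it was -1.24 in ES cells and -0.76 to -0.63 in erythroid libraries, and at Slc25a37 -0.99 in ES cells and -0.80 to -0.74 in erythroid libraries. The ES value lay outside the erythroid range at each viewpoint, with 1 ES library and no test. By least squares on log2 density it again lay outside at Hba and Hbb (-0.77 and -1.04 in ES cells), but at Slc25a37 it was -0.91 in ES cells, inside the erythroid range of -0.98 to -0.80.

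The share of distant reads more than 5 Mb away was lower in ES cells than in every erythroid library at all 3 viewpoints. At Hba that share was 58.9% in ES cells (Wilson 95% interval 58.6% to 59.1%, counting error only), against 73.1% to 81.2% in erythroid libraries. These intervals treat reads as independent and are too narrow where 1 molecule gave several reads. At Hbb it was 40.0% in ES cells (39.7% to 40.3%), against 68.9% to 75.4%. At Slc25a37 it was 52.6% in ES cells (52.3% to 53.0%), against 67.1% to 70.3%. Among single deletions, R2_KO had the steepest exponent at each viewpoint, -0.51 at Hba, -0.72 at Hbb and -0.80 at Slc25a37, with 1 library.

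Between the double deletions and control, Hba decay was steepest in R1R2_KO. The Hba exponent was -0.618, -0.618 and -0.616 in R1R2_KO, -0.487, -0.480 and -0.475 in R2R3_KO, and -0.486, -0.556 and -0.537 in control. R1R2_KO lay below all control libraries (difference -0.09, exact two-sided permutation p = 0.1, the smallest that 3 against 3 allows), and R2R3_KO overlapped control at its library 1 (difference 0.05, exact permutation p = 0.2). By least squares R2R3_KO lay above all control libraries at Hba, at -0.501, -0.522 and -0.534 in R2R3_KO and -0.545, -0.656 and -0.662 in control (exact permutation p = 0.1), as it did beyond 1 Mb. At Hbb the exponent averaged -0.76 ± 0.01 in R1R2_KO, -0.70 ± 0.01 in R2R3_KO and -0.74 ± 0.02 in control (SD, n = 3 each). R2R3_KO was above every control library there (exact permutation p = 0.1) and R1R2_KO overlapped control (p = 0.5). By least squares R2R3_KO overlapped control at Hbb, with a lowest value of -0.821 in R2R3_KO and a highest of -0.817 in control (exact permutation p = 0.2). At Slc25a37 the ranges overlapped, with exact permutation p = 0.5 for R1R2_KO and 0.4 for R2R3_KO, and p = 0.1 for R2R3_KO beyond 1 Mb, where it lay above control.

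**Figure D1:**
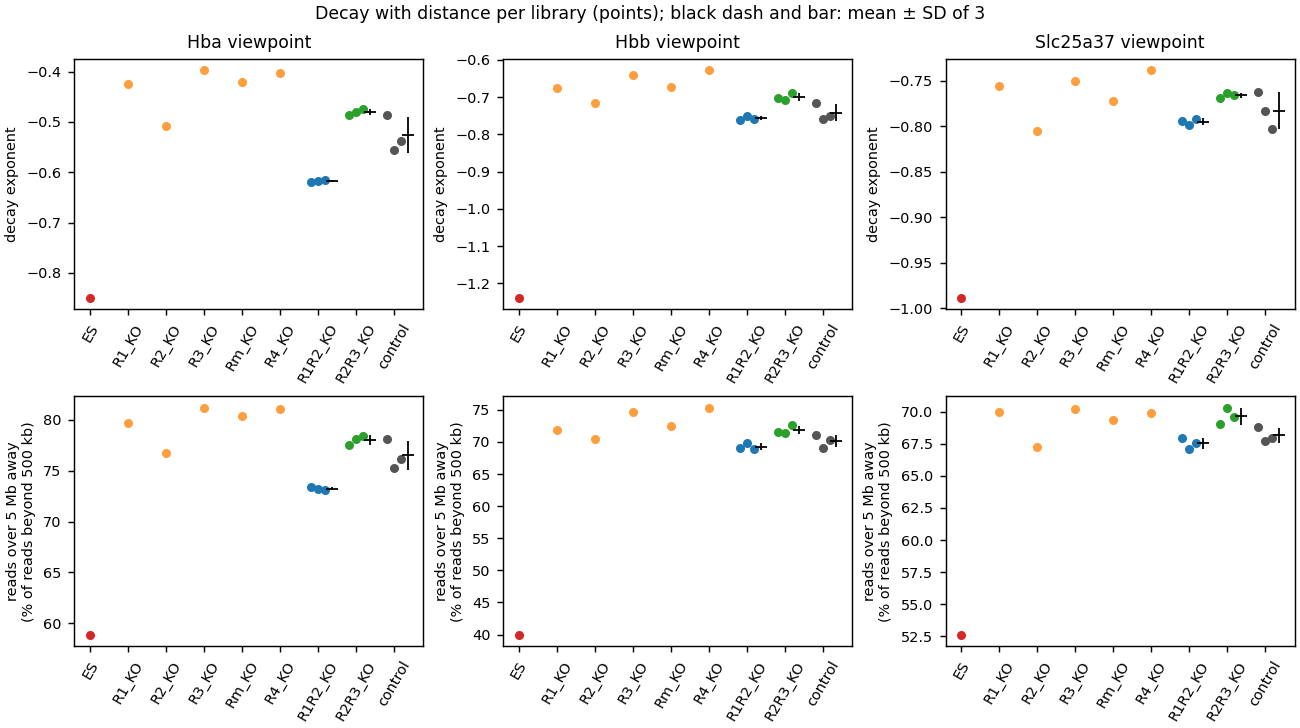
Decay exponent (top; no unit) and percent of distant reads more than 5 Mb away (bottom) per library at each viewpoint. Points are libraries, and the dash and bar beside the groups of 3 are mean ± SD. The ES point is lowest in all 6 panels, and the 3 R1R2_KO points lie below the 3 control points at Hba.

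The share of chromosome reads, counted more than 2 kb from a viewpoint, that fell beyond 500 kb was also higher in the double deletions at Hba. It averaged 39.8% ± 0.9 in R1R2_KO, 37.2% ± 0.6 in R2R3_KO and 27.8% ± 2.3 in control (SD, n = 3 each), and neither deletion overlapped control (exact permutation p = 0.1 each, the smallest possible). At Hbb and Slc25a37, where no element was deleted, R2R3_KO was also above every control library, with 48.9% ± 2.1 and 46.1% ± 1.1 in R2R3_KO against 39.4% ± 4.0 and 35.4% ± 3.3 in control (exact permutation p = 0.1 each). R1R2_KO overlapped control at both (46.0% ± 4.6 and 39.2% ± 1.9, exact permutation p = 0.3 each). The bin comparisons below are scaled to distant reads, so these shifts are taken out of them.

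Once decay was taken out, most distant bins of control cells still stood off the curve. Bins were tested if they gathered 90 or more reads over the 9 libraries of the double deletions and control, after leaving out 11 bins on chr7 and 6 on chr14 that few reads from the other 2 viewpoints reached. By edgeR's quasi-likelihood test at a Benjamini-Hochberg adjusted p of 0.05, 111 of 144 Hba bins (77.1%) were off the curve in control, 50 above (34.7%) and 61 below (42.4%). At Hbb 131 of 153 bins (85.6%) were off the curve, 57 above (37.3%) and 74 below (48.4%). At Slc25a37 it was 90 of 108 (83.3%), 40 above (37.0%) and 50 below (46.3%). With so many bins called, sizes are given beside the calls. Departures of 2-fold or more were seen above the curve in 15 Hba, 22 Hbb and 18 Slc25a37 bins and below it in 33, 49 and 36 bins.

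The single deletions took no part in these calls. Of the bins above the curve in control, 43 of 50 at Hba, 47 of 57 at Hbb and 39 of 40 at Slc25a37 were above it in all 5 single deletions. Of those below in control, 61 of 61, 70 of 74 and 46 of 50 were below in all 5. Over all tested bins, 98 of 144 at Hba, 113 of 153 at Hbb and 82 of 108 at Slc25a37 had 1 sign in all 14 erythroid libraries.

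**Figure D2:**
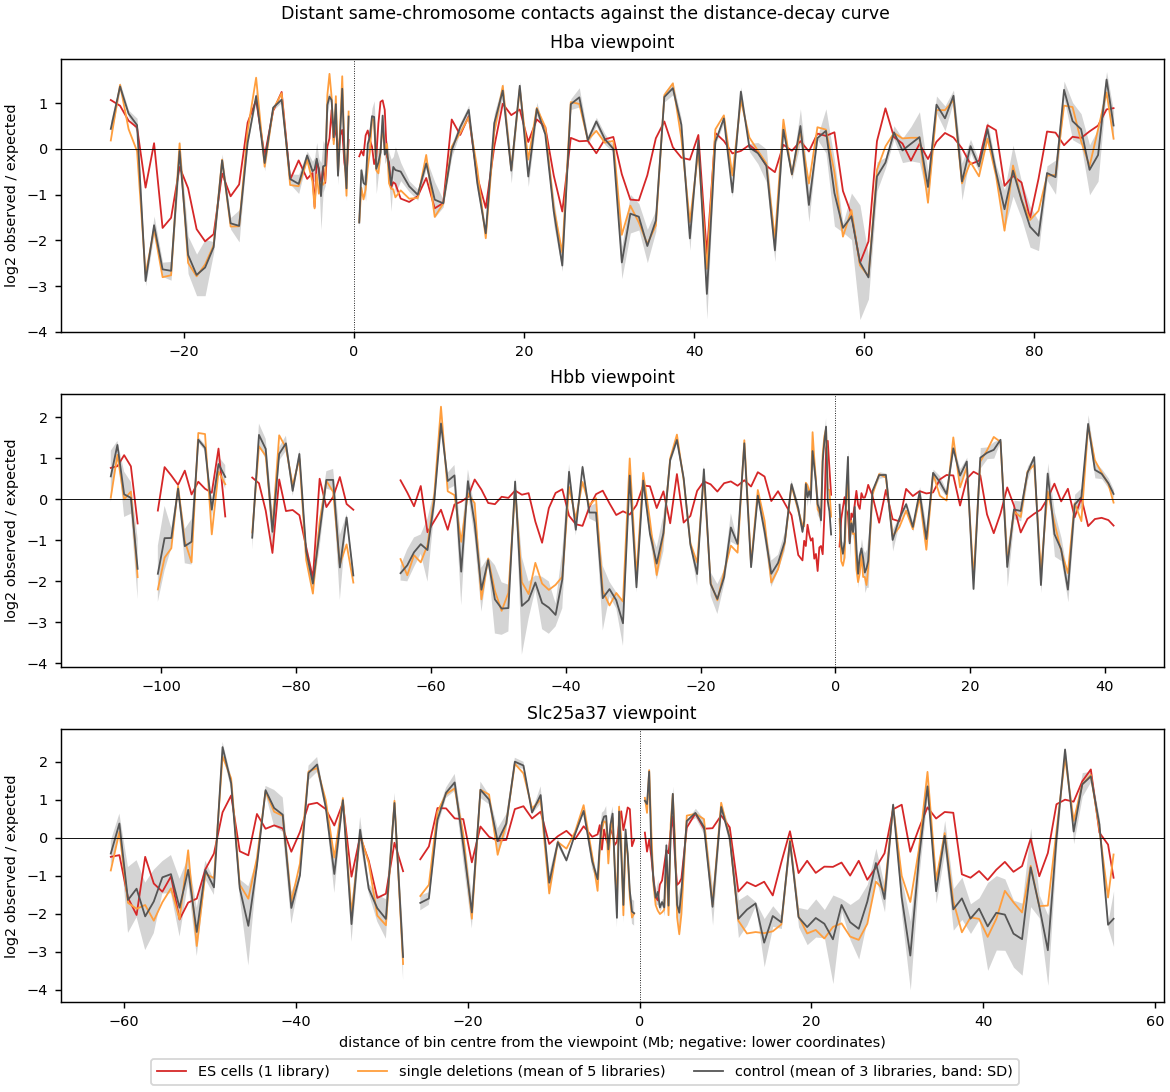
Log2 observed over expected reads of each bin against distance from the viewpoint, for ES cells (1 library), single deletions (mean of 5) and control (mean of 3, band SD). Lines break at bins left out. The single deletions track control at all viewpoints, whereas ES cells run flatter at Hba and Slc25a37 and differently at Hbb.

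At Hba, the 5 most favoured distant bins of control lay on both sides of the viewpoint and from 1.25 to 89 Mb away. The farthest, chr11:120197599-121197598, held 16.8 reads per 10000 in ES cells, 34.5 to 50.7 in single deletions, 16.2, 17.3 and 12.1 in R1R2_KO, 40.6, 39.5 and 37.2 in R2R3_KO and 40.9, 28.4 and 33.9 in control. That control level was 2.86 times the expected, although a plain power law in place of the smooth curve put this bin slightly below its expectation. ES cells and R1R2_KO were the low libraries there in reads per 10000, from which decay, steeper in both than in control, was not taken out.

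Nearer the locus, chr11:51197599-52197598, 19 to 20 Mb away, held 150 reads per 10000 in ES cells, 239 to 278 in single deletions, 264, 292 and 281 in R1R2_KO, 257, 253 and 230 in R2R3_KO and 263, 293 and 302 in control. On the lower side, chr11:4182317-5182316, 27 to 28 Mb away, held 158 in ES cells, 305 to 322 in single deletions, 274, 295 and 259 in R1R2_KO, 316, 308 and 344 in R2R3_KO and 277, 284 and 306 in control. They stood at 2.61 and 2.58 times the expected in control, and neither passed the test between a double deletion and control. Both held fewer reads per 10000 in ES cells than in every erythroid library. Decay, which was steeper in ES cells, was not taken out of these reads.

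The other 2 were chr11:69197599-70197598 (2.51 times the expected in control) and, close to the locus, chr11:30682317-30932316 (2.49 times). In ES cells they stood at 1.03 and 1.34 times the expected, against 2.70 and 3.01 times in the mean of the single deletions. The most avoided bins of control were chr11:73197599-74197598, chr11:7182317-8182316 and chr11:92197599-93197598, at 0.111, 0.135 and 0.143 times the expected. The first and the last were also low in ES cells (0.20 and 0.25 times), whereas the middle one stood at 0.56 times the expected in ES cells, against 0.15 times in the mean of the single deletions.

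At Hbb the 5 favoured bins were 2.74 to 3.61 times the expected in control. The leading one, chr7:51961283-52961282, 58 to 59 Mb from the genes, held 11.7 reads per 10000 in ES cells, 120 to 188 in single deletions, 98.2, 97.0 and 75.0 in R1R2_KO, 115, 97.4 and 98.0 in R2R3_KO and 89.2, 75.6 and 81.4 in control. The next, chr7:147977139-148977138, 37 to 38 Mb away on the other side, held 19.8 in ES cells, 155 to 237 in single deletions, 129, 171 and 165 in R1R2_KO, 184, 200 and 210 in R2R3_KO and 154, 147 and 184 in control. Every erythroid library was far above the ES value at both bins.

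Only 1 of the 5 was near the locus, chr7:109461283-109711282, 1.25 to 1.5 Mb away, at 3.42 times the expected in control and 2.36 times in ES cells. The other 2, chr7:24961283-25961282 and chr7:15961283-16961282, lay 85 to 86 and 94 to 95 Mb away, at 2.98 and 2.74 times the expected in control. The 3 most avoided bins, chr7:78961283-79961282, chr7:68961283-69961282 and chr7:60961283-61961282, stood at 0.123, 0.142 and 0.158 times the expected in control. In ES cells the same 3 bins were at 0.82, 1.11 and 1.05 times the expected, that is, near the curve. With reads of the other 2 viewpoints in place of width as exposure, the leading bin, chr7:51961283-52961282, turned to -0.32 on the log2 scale (edgeR adjusted p = 0.0045), the only one of these 8 Hbb bins to change sign.

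At Slc25a37 the 5 favoured bins were 3.72 to 5.21 times the expected in control. The bin chr14:20902161-21902160, 48 to 49 Mb away, held 50.3 reads per 10000 in ES cells, 116.3 to 139 in single deletions, 131, 105 and 104 in R1R2_KO, 164, 136 and 102 in R2R3_KO and 153, 161 and 110 in control, or 5.21 times the expected in control and 1.59 times in ES cells. On the other arm of the viewpoint, chr14:118904394-119904393, 49 to 50 Mb away, was at 4.99 times the expected in control and 2.00 times in ES cells. The bins chr14:54902161-55902160 and chr14:55902161-56902160 formed 1 stretch of 2 Mb, at 3.99 and 3.72 times the expected in control and 1.68 and 1.77 times in ES cells, and chr14:31902161-32902160 was at 3.79 times in control. All 5 were above the curve in ES cells too, by less (1.89 times for the last). The avoided bins chr14:80904394-81904393, chr14:83904394-84904393 and chr14:85904394-86904393 lay 11 to 17 Mb away on the higher side, at 0.227, 0.147 and 0.213 times the expected in control, and at 0.373, 0.447 and 0.637 times in ES cells.

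Landmark genes show where such bins fall. Their places are approximate, from general knowledge and not from the files, so a neighbouring bin may hold the gene. The list was drawn up with earlier results of these data known, so shares of landmark bins are descriptions only. On chr11, the bins at Bcl11a (a repressor of fetal globin genes), Trim58 (a ubiquitin ligase of late erythroblasts), Trp53, Stat5a/Stat5b (which act below the erythropoietin receptor) and Slc4a1 (the red cell anion exchanger, band 3) were above the curve in control, 5 of 7 landmarks against 34.7% of all Hba bins. Those at Ikzf1 (the lymphoid and erythroid factor Ikaros) and the Hoxb cluster were not called (control mean log2 observed over expected -0.04 ± 0.23 and -0.03 ± 0.27, SD, n = 3).

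On chr7 the bins at Uros (a haem synthesis enzyme), Igf2/H19 and Kcnq1ot1 (both imprinted regions) were all above the curve, 3 of 3 against 37.3%. On chr14 the bins at Bmp4, Gata4, Bnip3l (a receptor that marks mitochondria for removal in maturing red cells) and Dmtn (dematin, of the red cell skeleton) were above it and that at Rb1 was not called, 4 of 5 against 37.0%. The called bins hold landmarks of erythroid and of other lineages alike, and no count here sets them apart from other genes.

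The neighbours of landmark bins often differed sharply from them. At Dmtn, chr14:70904394-71154393, 1 to 1.25 Mb from Slc25a37, stood at a log2 of 1.74 ± 0.10 in control (SD, n = 3), with 0.88 in the bin below and -0.29 in the bin above. That bin held 240 reads per 10000 in ES cells, 436 to 542 in single deletions, 470, 542 and 466 in R1R2_KO, 449, 426 and 418 in R2R3_KO and 428, 461 and 497 in control, and in ES cells it sat on the curve (log2 -0.06). At Bnip3l the bin was at 0.68 in control, with -2.11 and -0.41 beside it. At Bcl11a it was at 1.08 with 0.90 and -0.66 beside it, and at Uros 1.03 with 0.64 and -2.09. At Trim58 the bin was at 1.13 with 0.98 and 0.19 beside it, at Gata4 0.70 with 0.09 and -0.62, and at Bmp4 1.18 with 0.46 and 1.45. At Trp53 it was at 1.33 with 1.14 and 0.53, at Slc4a1 1.16 with 0.67 and -0.71, and at Stat5a/Stat5b 0.97 with -0.83 and 0.67. The bins at Igf2/H19 and Kcnq1ot1 adjoin, at 0.72 and 0.62, with 1.84 below and 0.39 above them. The uncalled bins at Ikzf1, the Hoxb cluster and Rb1 had -2.66 and -2.32, 0.36 and 0.12, and -1.79 and 1.15 beside them. The ES library was below the lowest single deletion in 5 of 7, 3 of 3 and 4 of 5 landmark bins, against 41 of 144, 60 of 153 and 36 of 108 of all tested bins. Most landmark bins were above the curve in control, so all tested bins above it are the closer comparison. ES cells were below the mean of the single deletions in 43 of 59, 58 of 68 and 40 of 48 of these. That measure uses the mean and not the lowest single deletion.

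Replicates agreed on which bins departed from the curve. Across 144 Hba bins, Pearson's r of log2 observed over expected was 0.93 to 0.95 within R1R2_KO, 0.93 to 0.96 within R2R3_KO and 0.92 to 0.95 within control (3 library pairs each). Across 153 Hbb bins the ranges were 0.92 to 0.93, 0.93 to 0.94 and 0.94 to 0.95, and across 108 Slc25a37 bins 0.93 to 0.96, 0.94 to 0.95 and 0.94 to 0.96, in the same order. Pairs from different groups of these 9 libraries reached 0.85 to 0.95, 0.90 to 0.95 and 0.91 to 0.96. The deeper single deletions, all of different genotypes, correlated at 0.95 to 0.97, 0.94 to 0.97 and 0.96 to 0.98. Libraries of a pair share the genome's mappability and fragment density, so these are descriptions across bins and carry no p.

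Between ES cells and the 14 erythroid libraries, r was 0.74 to 0.79 for Hba and 0.67 to 0.74 for Slc25a37. For Hbb it was -0.09 to -0.02. On fragments with a read instead of reads the ES ranges were 0.81 to 0.87 at Hba, 0.73 to 0.83 at Slc25a37 and 0.08 to 0.14 at Hbb. With reads of the other viewpoints in place of bin width as exposure they were 0.43 to 0.53, 0.23 to 0.36 and -0.26 to -0.09. Within control r was then 0.82 to 0.89, 0.84 to 0.88 and 0.82 to 0.87. That exposure was pooled over the libraries of a set, but for ES cells came from the ES library alone. Hbb thus stood apart in each form. Within 5 Mb (36 bins) the ES correlation at Hba was lower, 0.40 to 0.61, than over 5 Mb (108 bins), 0.78 to 0.85. The same held at Slc25a37, with 0.47 to 0.57 within 5 Mb (36 bins) and 0.71 to 0.79 beyond (72 bins). At Hbb it was -0.26 to -0.08 within 5 Mb (36 bins) and -0.05 to 0.01 beyond (117 bins). The spread between control libraries was small beside the differences between bins, with a median SD over 3 libraries of 0.19, 0.20 and 0.21 log2 at Hba, Hbb and Slc25a37, against an SD over bins of 1.10, 1.21 and 1.25.

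**Figure D3:**
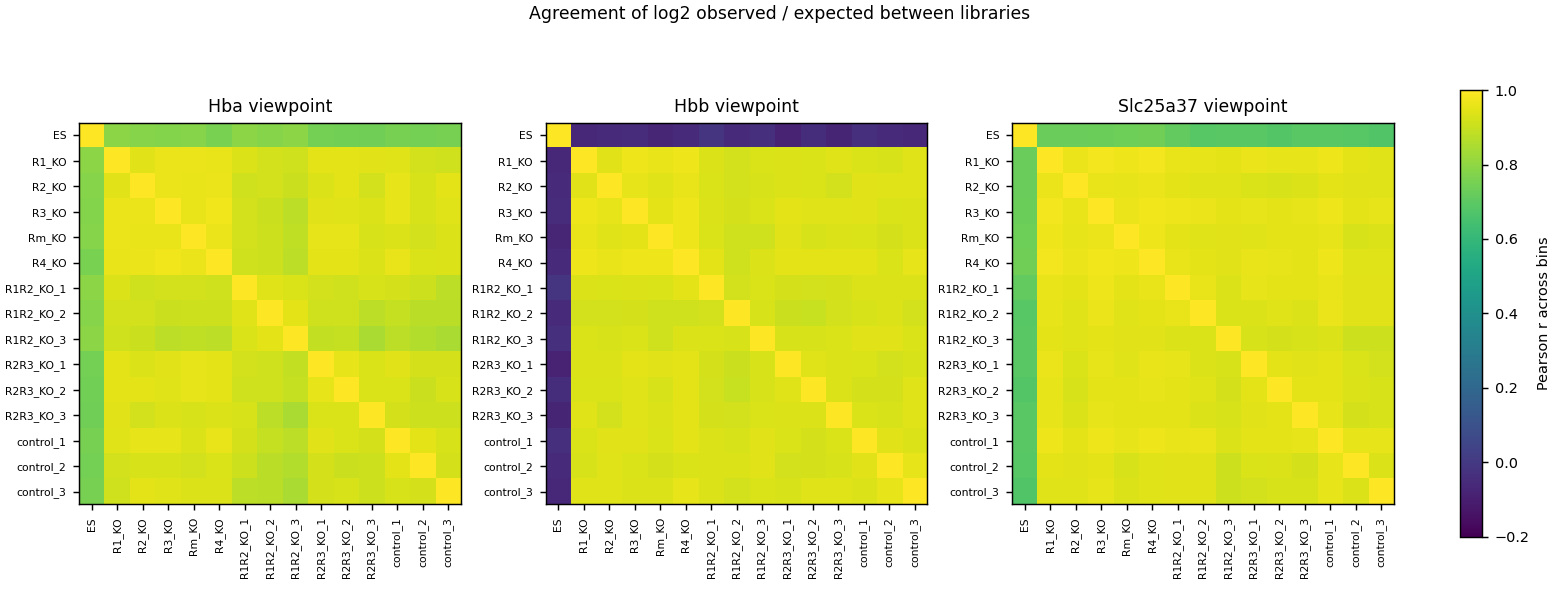
Pearson's r of log2 observed over expected across tested bins for each pair of the 15 libraries, by colour, at each viewpoint. The 14 erythroid libraries form 1 block of high r, and the ES row is lower at Hba and Slc25a37 and near 0 at Hbb.

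ES profiles were flatter, with an SD over tested bins of 0.75, 0.58 and 0.73 at Hba, Hbb and Slc25a37, against 1.10, 1.19 and 1.31 for the mean of the single deletions. A bin was called different in ES cells where it departed at least 2-fold from the mean of the 5 single deletions, lay outside their range and had 10 or more expected reads in each of these libraries. With 1 ES library there is no test. By that rule 21 of 145 Hba bins (14.5%) differed, 16 higher and 5 lower in ES cells, 92 of 165 Hbb bins (55.8%), 62 higher and 30 lower, and 53 of 143 Slc25a37 bins (37.1%), 45 higher and 8 lower. On fragments with a read the counts were 7, 63 and 34, and at Hba none of the 7 was lower in ES cells.

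The sizes of the 30 differences named next depended on the setting. On fragments with a read all 30 were smaller, 23 of them still at least 2-fold in the same direction, and with reads of the other viewpoints as exposure 21 of 30 were.

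The bins named as higher in ES cells were bins that erythroid cells avoided, with single deletion means at or under -1.58 log2 observed over expected. They were ranked by their difference from that mean, which favours bins where it is low, so this is a description only. At Hbb the largest were chr7:60961283-61961282, chr7:57961283-58961282, chr7:92961283-93961282, chr7:130977139-131977138 and chr7:76961283-77961282. The first of them held 21.1 reads per 10000 in ES cells, against 2.78 to 12.7 in single deletions, a log2 difference of 2.78. The others differed by 2.68, 2.65, 2.58 and 2.49, from single deletion means of -2.44, -2.46, -1.91 and -2.59 log2 observed over expected. In ES cells all 5 lay between -0.10 and 0.67, close to the curve.

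At Hba the bins with the largest differences toward ES cells were chr11:67197599-68197598, the neighbours chr11:7182317-8182316 and chr11:8182317-9182316, chr11:12182317-13182316 and chr11:66197599-67197598, with log2 differences of 1.91, 1.89, 1.89, 1.63 and 1.503. Of these, chr11:7182317-8182316 and chr11:12182317-13182316 stayed under the curve in ES cells, at -0.84 and -0.86. At Slc25a37 they were chr14:41902161-42902160, chr14:68652161-68902160, chr14:105904394-106904393, chr14:67902161-68152160 and chr14:94904394-95904393. The second of these, 1 to 1.25 Mb away, held 420 reads per 10000 in ES cells, against 40.4 to 58.6 in single deletions, and its log2 difference was 2.33. The other 4 differed by 2.44, 2.33, 2.24 and 2.08, and the fifth (chr14:94904394-95904393) held 26.7 reads per 10000 in ES cells, against 6.92 to 12.2 in single deletions.

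The bins named as lower in ES cells were above the curve in the single deletions, except chr14:16902161-17902160, which had -0.33 there and -1.71 in ES cells. The same ranking favours bins with high single deletion means here, so this too is a description only. At Hbb, chr7:107461283-107711282 and chr7:107711283-107961282, 1 stretch 3 to 3.5 Mb from the genes, held 25.6 and 20.3 reads per 10000 in ES cells, against 149 to 188 and 97.2 to 126 in single deletions. Their log2 differences were -2.59 and -2.45, and chr7:51961283-52961282, chr7:147977139-148977138 and chr7:108961283-109211282 followed with -2.51, -2.45 and -2.43. At Slc25a37 the lowest was the Dmtn bin, chr14:70904394-71154393, with -1.83, then chr14:20902161-21902160, chr14:16902161-17902160, chr14:54902161-55902160 and chr14:51902161-52902160 with -1.47, -1.38, -1.19 and -1.11. At Hba the 5 were chr11:29182317-29432316, chr11:69197599-70197598, chr11:30682317-30932316, chr11:28932317-29182316 and chr11:77197599-78197598, with -1.41, -1.40, -1.17, -1.13 and -1.11. The third of these, chr11:30682317-30932316, reversed to 0.35 with reads of the other viewpoints as exposure.

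**Figure D4:**
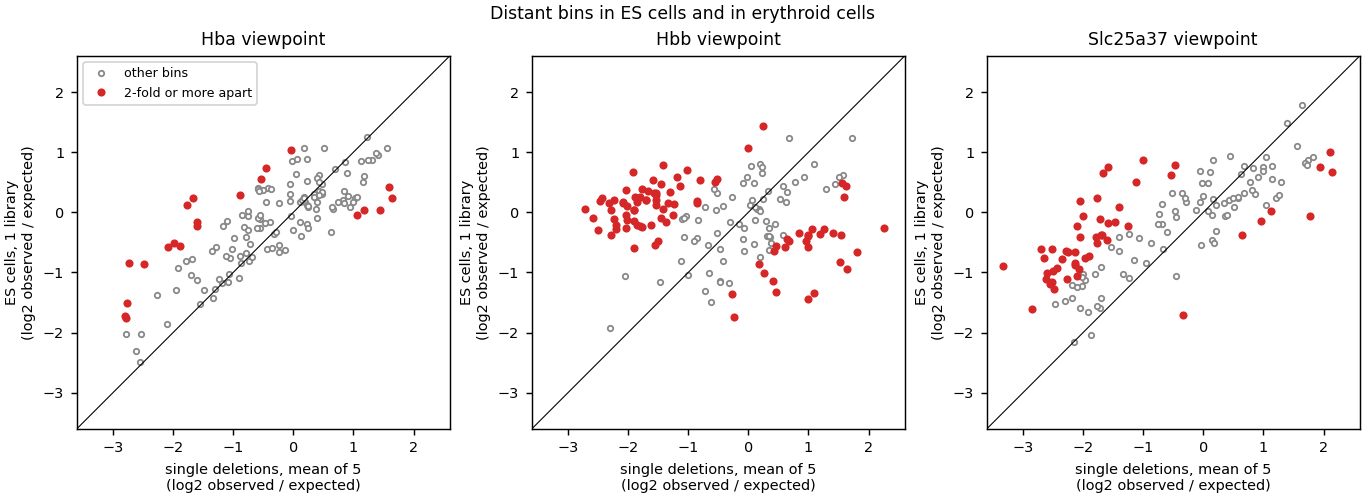
Log2 observed over expected in ES cells (1 library) against the mean of the 5 single deletions, 1 point per bin, with the line of equality. Filled points are at least 2-fold apart and outside the range of the single deletions. Hba and Slc25a37 bins follow a slope under equality, and Hbb bins follow none.

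Few bins were strongly favoured in ES cells. At least 2-fold above the curve were 5 of 145 Hba, 4 of 165 Hbb and 3 of 143 Slc25a37 bins in ES cells, against 16, 19 and 19 in the mean of the single deletions. At 1.5-fold above the curve, 11 Hba bins were shared (55.0% of 20 ES bins and 37.9% of 29 single deletion bins), 5 Hbb bins (33.3% of 15 and 15.2% of 33) and 17 Slc25a37 bins (65.4% of 26 and 54.8% of 31). Over all bins, the single deletions were that far above the curve in 29 of 145, 33 of 165 and 31 of 143. Whether the overlaps exceed these shares was not tested. For Hba the highest ES bin was chr11:23182317-24182316, the Bcl11a bin, at 2.37 times the expected in ES cells and a log2 of 1.25, against 1.12 to 1.44 in single deletions and 1.08 in control. For Hbb it was chr7:109711283-109961282, 1 to 1.25 Mb away, at a log2 of 1.43 in ES cells and 0.14 to 0.45 in single deletions. For Slc25a37 it was chr14:121904394-122904393, at 1.79 in ES cells and 1.45 to 1.78 in single deletions, a bin that both cell types favoured.

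Distant bins of the Hba viewpoint differed from control in both double deletions. Against control, 35 of 144 bins (24.3%) passed the edgeR test in R1R2_KO, 18 higher and 17 lower. In R2R3_KO 25 bins (17.4%) passed, 9 higher and 16 lower. The double deletions share the control libraries. Scaling to all chromosome reads instead of distant reads put the median log2 fold change at 0.40 in R1R2_KO and 0.37 in R2R3_KO, where it was -0.12 and -0.05 before, and the split became 60 higher and 4 lower in R1R2_KO and 58 higher and 2 lower in R2R3_KO. The directions below are therefore relative to the other distant bins. Distance decay was not taken out of these fold changes, and it was steeper in R1R2_KO than in control at Hba. The part of decay in them was not tested.

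In R1R2_KO all 17 lower bins lay on the higher-coordinate side more than 25 Mb away, where 64 bins were tested. On the lower-coordinate side only 4 tested bins lay that far away, so side and distance could not be told apart for these 17. The higher bins lay mostly on the lower-coordinate side, 15 of 42 tested there, with 3 of 102 on the other side. The sharpest fall was at chr11:102197599-103197598, the Slc4a1 bin, with 21.1, 14.9 and 22.5 reads per 10000 in R1R2_KO, against 53.8, 52.1 and 50.1 in control (log2 fold change -1.39 ± 0.20 SE, edgeR adjusted p = 5.73e-10). Next was chr11:77197599-78197598, with 71.3, 68.1 and 68.1 in R1R2_KO against 162, 159 and 165 in control (-1.22 ± 0.11 SE, adjusted p = 7.35e-24). At neither bin did R1R2_KO overlap control, and neither passed in R2R3_KO (edgeR adjusted p = 0.191 and 0.842).

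The third, chr11:120197599-121197598, fell by 1.18 on the log2 scale (edgeR adjusted p = 5.55e-05). Of the 7 landmark bins, those at Trim58, Trp53, Stat5a/Stat5b and Slc4a1 fell in R1R2_KO, with log2 fold changes of -0.94, -0.75, -0.74 and -1.39. With decay taken out, mean log2 observed over expected at these bins was 0.21, 0.73, 0.82 and 0.36 in R1R2_KO. In control it was 1.13, 1.33, 0.97 and 1.16. At Stat5a/Stat5b the libraries then overlapped, at 1.03, 0.92 and 0.51 in R1R2_KO and 1.01, 0.77 and 1.14 in control. Landmark neighbours that also passed as lower were chr11:68197599-69197598, chr11:95197599-96197598 and chr11:101197599-102197598 (log2 fold change -0.49, -0.58 and -1.02). With decay taken out they stood at 0.78, 0.33 and 0.28 in R1R2_KO, against 1.14, 0.36 and 0.67 in control. These differences were not tested. The Hoxb bin did not pass (-0.35, adjusted p = 0.308). In their control mean all 17 lower bins were above the curve, against 31 of 64 tested bins of that stretch, and 13 of the 18 higher bins were above it too. The same control libraries served to call the lower bins, so a high control value helped select them. Of the 17 lower bins, 16 were lower in ES cells than the mean of the single deletions, against 25 of those 31.

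Rises in R1R2_KO were led by chr11:8182317-9182316, with 78.4, 59.7 and 60.8 reads per 10000 in R1R2_KO against 35.7, 40.0 and 31.3 in control (log2 fold change 0.91 ± 0.18 SE, edgeR adjusted p = 8.33e-06). The Ikzf1 bin, chr11:11182317-12182316, held 196, 207 and 209 in R1R2_KO against 127, 103 and 94.5 in control (0.90 ± 0.10 SE, adjusted p = 1.85e-16). The third was chr11:63197599-64197598 (0.73 ± 0.26 SE, adjusted p = 0.025). The Bcl11a bin also rose (0.38, adjusted p = 0.000314), so 6 of 7 landmark bins passed in R1R2_KO, 2 higher and 4 lower, against 24.3% of all Hba bins. The landmarks were chosen with earlier results of these data known, so that share is a description only. The Ikzf1 bin was higher in R2R3_KO too, at 140, 168 and 136 in R2R3_KO (0.45 against control, adjusted p = 0.000606), and in ES cells it was low, at 63.1.

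The stretch beyond 25 Mb on the higher-coordinate side as a whole took 26.3% to 26.5% of distant Hba reads in R1R2_KO, 38.0% to 39.0% in R2R3_KO and 32.3% to 36.6% in control. It took 37.4% to 43.0% in the single deletions and 23.6% in ES cells. R1R2_KO lay below every other erythroid library. In reads from the Hbb and Slc25a37 viewpoints, the same stretch of chr11 took 70.0% to 71.5% of chr11 reads in R1R2_KO, 71.5% to 75.3% in R2R3_KO and 69.7% to 73.1% in control. Those ranges overlapped between R1R2_KO and control. Likewise the 17 lower bins together took 10.8%, 10.8% and 10.4% of distant Hba reads in R1R2_KO and 18.4%, 16.5% and 18.5% in control, and 27.3%, 30.8% and 23.9% of the chr11 reads from the other viewpoints in R1R2_KO and 26.5%, 26.5% and 31.7% in control. These 17 were chosen on the first of those measures, which is a description here.

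In R2R3_KO, 11 of the 16 lower bins lay on the higher-coordinate side within 25 Mb. Of 18 bins tested from 0.5 to 5 Mb on the higher-coordinate side, 9 fell and none rose, and 2 of 20 fell from 5 to 25 Mb. The lowest 3 were chr11:36697599-36947598 (log2 fold change -1.18 ± 0.37 SE, edgeR adjusted p = 0.0134), chr11:28432317-28682316 (-0.95 ± 0.32 SE, adjusted p = 0.0258) and chr11:33697599-33947598 (-0.95 ± 0.17 SE, adjusted p = 2.08e-06). The last of them held 42.1, 37.5 and 35.3 reads per 10000 in R2R3_KO, against 80.1, 77.3 and 64.8 in control, without overlap. In R1R2_KO it held 78.7, 53.1 and 78.1, and in the single deletions 39.0 to 50.1. That zone as a whole took 5.55% to 6.59% of distant Hba reads in R2R3_KO against 8.24% to 10.1% in control, while R1R2_KO had 8.62% to 8.84% and the single deletions 5.91% to 7.91%. In reads from the Hbb and Slc25a37 viewpoints the same zone also took less in R2R3_KO, without overlap, at 1.25%, 1.64% and 1.59% of distant chr11 reads in R2R3_KO against 2.14%, 2.14% and 2.70% in control. These shares rest on 27 to 36 reads per library in R2R3_KO and 58 to 83 in control. The part of that shift in the Hba result was not tested. The 16 lower bins together took 2.13%, 3.83% and 2.90% of such reads in R2R3_KO and 4.28%, 3.61% and 3.47% in control, ranges that overlapped.

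The higher bins of R2R3_KO were led by chr11:76197599-77197598 (0.62 ± 0.19 SE, edgeR adjusted p = 0.0134), chr11:29182317-29432316 (0.55 ± 0.12 SE, adjusted p = 0.000149) and chr11:74197599-75197598 (0.50 ± 0.12 SE, adjusted p = 0.00084). The second of them held 121, 131 and 115.6 reads per 10000 in R2R3_KO against 74.9, 85.8 and 90.9 in control. The count for R2R3_KO moved with single libraries. It was 41 without control library 1, 11 without control library 2, 15 without either R2R3_KO library 1 or library 2, and 14 by DESeq2 with all libraries. The R1R2_KO count ranged from 29 to 38 when 1 library was left out.

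**Figure D5:**
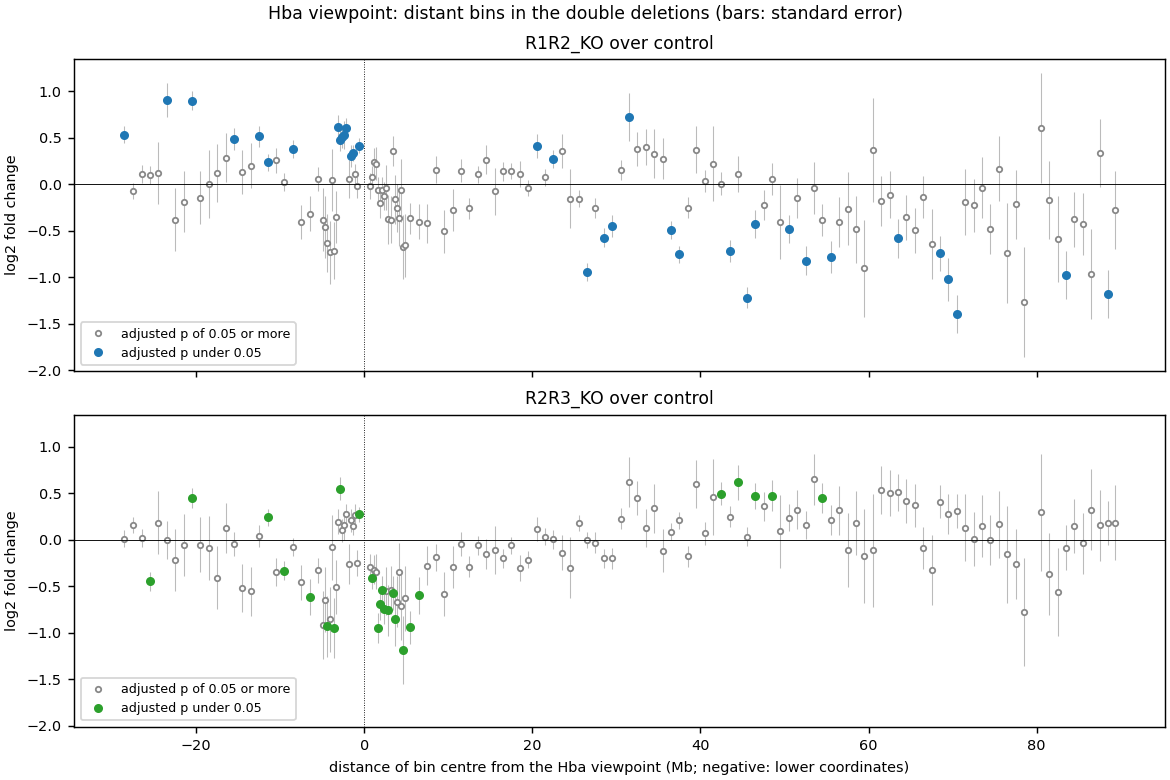
Log2 fold change over control of each tested Hba bin against distance from the viewpoint, for R1R2_KO (top) and R2R3_KO (bottom), 3 libraries per group, bars standard error. Filled points passed the edgeR test. In R1R2_KO the 17 lower bins lie at the far right, and in R2R3_KO 9 of the 16 lower bins lie within 5 Mb on the right of the viewpoint.

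At the other viewpoints fewer distant bins passed the test. At Hbb, 2 of 153 bins (1.31%) passed in R1R2_KO. The bin chr7:109461283-109711282 held 497, 461 and 458 reads per 10000 in R1R2_KO against 426, 362 and 327 in control (log2 fold change 0.35 ± 0.08 SE, edgeR adjusted p = 0.0015), and chr7:107461283-107711282 held 108, 108 and 95.1 in R1R2_KO against 122, 129 and 180 in control (-0.47 ± 0.13 SE, adjusted p = 0.0383). This count was 0 without R1R2_KO library 2 or without control library 3. In R2R3_KO 11 Hbb bins (7.19%) passed, 5 higher and 6 lower, and 2 or 3 passed without control library 2, R2R3_KO library 1 or R2R3_KO library 2, 5 without R2R3_KO library 3, and 1 by DESeq2. The highest were chr7:27961283-28961282, chr7:82961283-83961282 and chr7:113227139-113477138 (log2 fold change 0.80, 0.69 and 0.58, adjusted p = 0.0172, 0.0172 and 0.0333). The lowest were chr7:115727139-115977138, chr7:114477139-114727138 and chr7:113977139-114227138, all within 5 Mb on the higher-coordinate side (-0.999, -0.85 and -0.77, adjusted p = 0.0464 each). Scaled to chromosome reads, 5 Hbb bins were higher and 0 lower in R1R2_KO, and 38 higher and 0 lower in R2R3_KO.

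At Slc25a37 no bin of 108 passed in R1R2_KO (0%) by edgeR or DESeq2, with 9 at an unadjusted edgeR p under 0.05. In R2R3_KO 2 passed (1.85%), and leaving out either of control libraries 2 and 3 or R2R3_KO libraries 1 and 2 left none. The first, chr14:36902161-37902160, held 97.5, 104 and 71.2 reads per 10000 in R2R3_KO against 62.4, 39.2 and 45.4 in control (log2 fold change 0.85 ± 0.22 SE, edgeR adjusted p = 0.0106). The second, chr14:84904394-85904393, held 9.29, 7.98 and 7.70 in R2R3_KO against 17.7, 20.4 and 26.6 in control (-1.31 ± 0.38 SE, adjusted p = 0.0497). Scaled to chromosome reads, 31 bins were higher and 0 lower in R2R3_KO.

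Favoured bins also gathered reads from other chromosomes' viewpoints. Across tested bins, log2 observed over expected in control correlated with the density of reads from the other 2 viewpoints in the 9 libraries of the double deletions and control at r = 0.59 for Hba (144 bins), 0.82 for Hbb (153 bins) and 0.83 for Slc25a37 (108 bins). In the single deletions r was 0.64, 0.86 and 0.80. In ES cells it was 0.29 for Hba, -0.30 for Hbb and 0.42 for Slc25a37. The points share mappability and fragment density, which were not measured apart from the reads, so no p is given. With reads of the other viewpoints as exposure in place of bin width, 89 of 144 Hba bins, 107 of 153 Hbb bins and 71 of 108 Slc25a37 bins were still off the curve in control.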

How the data were processed

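Per the labels, 3C libraries cut with DpnII were captured in 2 rounds and sequenced. The 6 deposited tables give, for each DpnII fragment in mm9, raw counts of reads; Bowtie and Trim Galore are named by the submitters' processing notes, and their versions and the way reads were counted are not given in the sources used here. Fragments without reads in any library of a table are not listed. Each table of the double deletions and control also holds 7 columns whose names fit none of the 15 samples; they stayed unused.

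Viewpoints were taken as gaps of at least 1500 bp in the tables. Bins run from 500 kb outward on each side. Bins where the density of reads from the other 2 viewpoints was under 25% of the chromosome's median were left out, which was decided once the counts had been looked at. Expected reads came from a Poisson fit per library on bin width and a natural spline of log distance with 3 degrees of freedom, both sides together. Log2 ratios add 0.5 reads to observed and expected. Counts of the 9 libraries of the double deletions and control (all 9 in 1 fit, group as the only term, library size the distant reads, bins of 90 or more reads) were tested with edgeR 4.0.16 in R 4.3.3, with Benjamini-Hochberg adjustment at 0.05 per viewpoint and contrast, with expected reads as offset for departures from the curve. Single values used exact permutation tests, and intervals are Wilson 95% intervals from scipy 1.17.1. Both edgeR steps were also run on simulated counts with the same dispersion in every bin. Fragments holding several reads were not simulated, so that run cannot show how the tests behave with them. Named bins are, per viewpoint, the 5 highest and 3 lowest in control, the 3 highest and 3 lowest per double deletion, and the 5 highest and 5 lowest for ES cells, among those called, with 15 landmark genes. 1 further landmark is not reported here. The members and lists were chosen with earlier results of these data known. Side and distance zones, ES extremes, and the shares from other viewpoints were chosen after seeing the data.

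Same-numbered replicates did not deviate together (r from -0.24 to 0.15 over 27 pairs, 5 above 0.1), so the numbers were not taken to pair samples. Chi-square per degree of freedom over bins was 1.26 to 3.84 between replicates on reads and 0.99 to 1.93 on fragments, where some pairs were close to sampling noise. Replicates had at most 30.0% of the smaller library's distant fragments in common, against at most 27.7% between groups, and each library was counted once. The reference tables are of another build and no mm9 genome was used, so no sequence is printed. The alternatives were TMM factors, DESeq2 1.42.0, no filter, a replicate block, other library sizes, bins and curves, other exposures, fragments with a read and leaving out 1 library.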

Additional observations from a re-analysis of the deposited data

How the results depend on the processing

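Scaling to chromosome reads moved the deletion counts most, to 64 bins at Hba in R1R2_KO and 60 in R2R3_KO, 5 and 38 at Hbb, and 31 at Slc25a37 in R2R3_KO. DESeq2 called 14 Hba bins in R2R3_KO, 1 Hbb bin in each double deletion and 0 Slc25a37 bins in R2R3_KO. With TMM factors or 1 Mb bins at all distances, 1 Hbb bin passed in R1R2_KO and 1 Slc25a37 bin in R2R3_KO. With no filter, 7 Hbb and 1 Slc25a37 bins passed in R2R3_KO, and with fragments in place of reads 1 Hbb bin in R1R2_KO and 17 in R2R3_KO. Against the single deletions, ES calls were 32 at Hba with a power law, 7 at Hba and 34 at Slc25a37 with fragments, 34 at Slc25a37 with the curve fitted to tested bins only, and 67 and 91 at a log2 difference of 0.5. The use of fragments and of the tested-bins curve was chosen after seeing the data. The cause of these moves was not tested.

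With 1 library left out, counts ranged from 29 to 38 (R1R2_KO) and 11 to 41 (R2R3_KO) for Hba, 0 to 2 and 2 to 13 for Hbb, and 0 to 0 and 0 to 2 for Slc25a37, and bins off the curve from 97 to 104, 123 to 126 and 86 to 87. Replicate numbers did not pair the samples, and the fit with a replicate block called 34 and 19 bins for Hba, 2 and 12 for Hbb and 0 and 2 for Slc25a37. The split of bins off the Hba curve in control became 41 above and 85 below with a power law. It was 34 and 60 with the number of fragments holding a read as exposure. That number counts fragments with a read from the same viewpoint in any library, so it rises with the contacts themselves. By the same 2 alternatives the split was 44 and 83, and 36 and 72, at Hbb, and with such fragment numbers 27 and 48 at Slc25a37. With no filter it was 40 above and 86 below at Slc25a37.

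Values that changed sign were chr11:120197599-121197598 with a power law (-0.13, edgeR adjusted p = 0.46), and with reads of the other viewpoints as exposure chr7:51961283-52961282 (-0.32) and the ES difference at chr11:30682317-30932316 (0.35). Of 30 named ES differences, 26 moved by more than the spread of the single deletions with fragments, 25 with reads of the other viewpoints as exposure, 23 with a curve per side and 16 with a power law, by medians of 0.52, 0.67, 0.39 and 0.23. Of the 30, 23, 21, 25 and 27 stayed at least 2-fold in their direction. By least squares the exponent of R1R2_KO minus control was 0.0235 at Hbb and 0.0302 at Slc25a37, with exact permutation p = 0.7 and 0.5. Depth limits Slc25a37 most, where 35 of 143 usable bins had too few reads to test.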
